A study of Rattus norvegicus with 18 samples.

Results

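The muscles that move the eye (extraocular muscles, EOM) were compared between rats in which experimental autoimmune myasthenia gravis (EAMG) had been induced and control rats that had received only adjuvant. The 6 arrays of this comparison, 3 EAMG and 3 control, were taken by their labelled muscle and treatment from a series of 18 arrays, the other 12 of which hold 6 arrays of the diaphragm (DIA) and 6 of the extensor digitorum longus (EDL), a hindlimb muscle. Female Lewis rats, 6 to 8 weeks old, were injected once at the base of the tail with acetylcholine receptor (AChR) of the electric ray Torpedo californica in complete Freund's adjuvant to which Mycobacterium tuberculosis had been added. Control rats received that adjuvant without AChR, so every animal of the comparison had been exposed to the adjuvant and the non-viable bacteria. Muscles were collected 6 weeks later, when the EAMG rats were weak and losing weight, so that disease and weight loss cannot be told apart in any comparison of the groups. RNA on an array came from a pool of rats, and the sources differ on whether a pool held 3, 4 or 5. The array is therefore the replicate (n = 3 per group), and its spread is that between pools. EOM was the rectus muscles only, taken from the orbit, where conjunctival epithelium and orbital glands lie beside the muscle.

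EAMG is a model of the human disease in which antibodies bind the AChR of the postsynaptic membrane, activate complement there and lower the number of receptors, so that transmission from nerve to muscle fails. A muscle that loses input from its nerve is known to raise transcription of AChR subunits and of a set of regulators that follow electrical silence. EOM differ from limb and trunk muscle in holding fibres with many endplates, their own fast myosin and embryonic myosins, and they are often the first muscles to weaken in patients. Weight loss and illness are known to raise glucocorticoids, which act on muscle through a nuclear receptor and turn on genes of fuel choice and protein breakdown.

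Expression was measured as linear signal intensity, with the arrays scaled to a common mean. Of 31042 probe sets, each a set of short probes for a transcript, 11017 had a signal of at least 400 on at least 1 of the 6 EOM arrays and were tested (7251 named genes). A gene is given by its tested probe set with the highest mean signal in EOM. The muscle label was borne out by its markers. Myh13, the myosin heavy chain of EOM, lay between 24384 and 27688 on the EOM control arrays and between 17345 and 27949.6 on the EAMG arrays, against a mean of 19.1 on the DIA and 301 on the EDL control arrays. All 19 retina and lens genes and all 13 T cell genes looked for stayed below 400 on every EOM array. The 6 arrays correlated at 0.94 to 0.98 over log2 signals, and the 3' over 5' signal ratio of GAPDH, a sign of RNA integrity, was 2.65, 2.39 and 2.78 on the control and 2.60, 1.83 and 2.63 on the EAMG arrays (exact two-sided permutation p = 0.5, where 0.1 is the smallest that 3 against 3 arrays can give). Some EAMG arrays stood apart. On EAMG 2 the poly-A RNAs spiked into the labelling reaction read 564 on average, against 11109.6 to 16293 on the other 5 arrays. On EAMG 3 the summed signal of the 19 macrophage genes tested was 54196, against 12704 to 23230.3 on the control arrays and 18678 and 19339.9 on EAMG 1 and 2, and the 23 genes of the fast sarcomere summed to 430985, against 553405 to 717176 on the other 5 arrays.

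EAMG and control EOM differed in a small share of the transcripts tested. Of the 11017 probe sets, 190 (1.72%) passed, 119 (1.08%) higher and 71 (0.644%) lower in EAMG, at an adjusted p under 0.05 (limma, Benjamini-Hochberg over all probe sets tested), which is 86 and 58 named genes. A change of at least 2-fold was seen in 61 of the higher and 24 of the lower probe sets. Over all tested probe sets the median log2 change was 0.01, 50.9% were above 0, and the 5th and 95th percentiles were -0.45 and 0.51. The 3 EAMG arrays lay on one side of the 3 control arrays in each of the 190 probe sets called, and in 13.1% (higher) and 12.2% (lower) of all tested. Counted instead by ratios of single arrays, 70 probe sets were at least 2-fold higher and 25 at least 2-fold lower in 7 or more of the 9 EAMG to control ratios. Leaving out 1 array at a time cost many calls, the higher count falling to between 44 (without control 2) and 85 (without EAMG 3) and the lower count to between 19 (without control 2) and 42 (without EAMG 2), and 35 higher and 16 lower probe sets were called in each of those 6 fits. A called gene is given below without a remark on single arrays where its call held in each of those 6 fits. The spread was taken over all 18 arrays. A fit to the 6 EOM arrays alone is given for some of the genes and lists whose calls it changed. In that fit 84 of the 119 higher and 51 of the 71 lower probe sets kept their call. Among the called genes named here 12 lost it, Plin2, Gstt3, Hsph1, Mfsd4a, Hopx, Amacr, Myom2, Wnt16, Oxct1, Hacd2, Tmem196 and Ccdc181 (adjusted p = 0.0537 to 0.0999). The signal minimum also bears on the direction. Of the 119 higher probe sets 31 were below 400 on every control array and entered the test through an EAMG array, in which they had to be higher. Levels are from whole tissue, in which fewer cells of a type and less RNA per cell cannot be told apart.

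**Figure D1:**
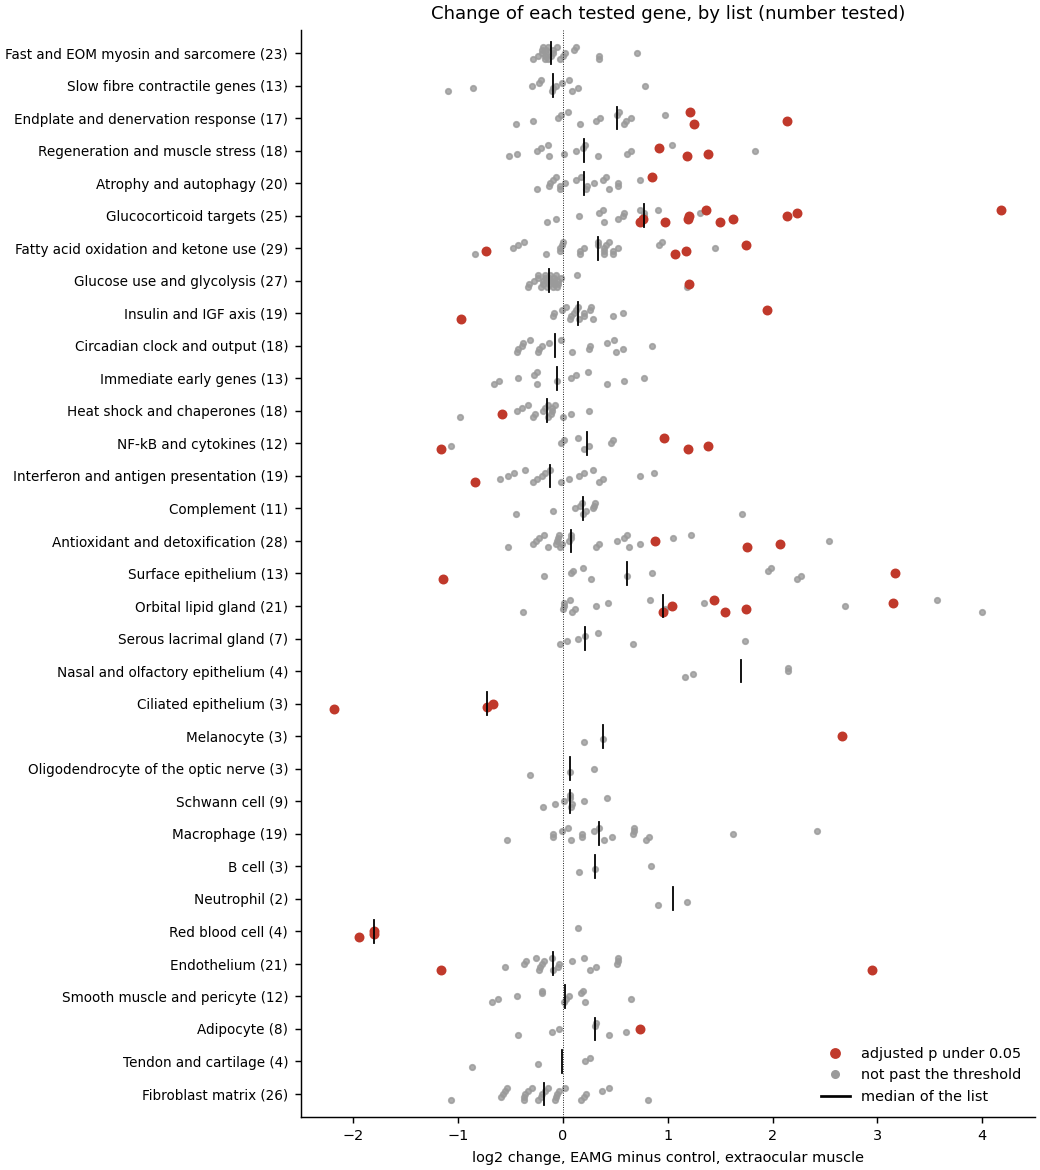
Log2 changes (EAMG minus control, EOM) of the tested genes of each gene list, 1 point per gene, in red where called at an adjusted p under 0.05 (limma), with a bar at the list's median. The glucocorticoid, endplate and orbital lipid gland lists have medians of 0.77, 0.52 and 0.95, against 0.01 over all probe sets tested, and the fast sarcomere list lies close to 0.

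At the endplate, the AChR α subunit rose. Chrna1, which encodes the subunit that carries the acetylcholine site and most of the antigenic region, read 2588, 2508 and 2596 on the control arrays and 6662, 5176 and 6133 on the EAMG arrays. The control arrays were almost level and each EAMG array lay well above them. The log2 change was 1.22 ± 0.19 (SE, n = 3, adjusted p = 0.00444). In the DIA and EDL it changed by 0.67 and 0.49 (adjusted p = 0.0733 and 0.144), and its mean control signal was 609 and 567, against 2564 in control EOM. The sequence from 250 bases before to 50 bases after the start of the gene (RefSeq, GRCr8, chr3:78877304-78877603, minus strand) is shown because AChR subunit genes are known to answer electrical silence through E-boxes, the sites of myogenic factors such as myogenin. Capitals mark 2 matches to CAGCTG and 1 to CAGGTG.
Chrna1: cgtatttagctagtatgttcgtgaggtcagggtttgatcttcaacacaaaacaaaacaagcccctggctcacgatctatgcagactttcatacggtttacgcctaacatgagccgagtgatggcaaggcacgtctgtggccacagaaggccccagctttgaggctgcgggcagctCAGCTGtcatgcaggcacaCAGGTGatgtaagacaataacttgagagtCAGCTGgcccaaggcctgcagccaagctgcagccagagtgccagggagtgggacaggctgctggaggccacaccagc
Searched on both strands, CAGCTG was found in 15.1% and CAGGTG in 18.8% of 33469 promoters of that length, so a match is common, and it is given here as a description only. CAGCTG was present in the promoters of 2 of the 3 called endplate members (Chrna1 and Gadd45a) and of 2 of 9 members not called (Chrnb1 and Chrne).

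Gadd45a and Runx1, both known to rise when a muscle is denervated, also rose. Gadd45a, a stress gene of growth arrest, read 3720.2, 3611 and 3387 on the control arrays and 9806, 8569 and 7317 on the EAMG arrays, with no overlap, a log2 change of 1.25 ± 0.19 (SE, n = 3, adjusted p = 0.00347). It changed by almost the same amount in the DIA (1.18) and EDL (1.26). Runx1, a transcription factor that limits the wasting of denervated fibres, read 426, 622 and 516 on the control arrays and 2432, 1610.5 and 2959 on the EAMG arrays. Its change of 2.14 ± 0.31 (SE, n = 3, adjusted p = 0.00227) was the largest of the list, and was 1.11 in the DIA and 0.77 in the EDL (adjusted p = 0.0642 and 0.147). Of the 17 endplate and denervation genes tested these 3 were called higher and none lower, against 1.13% higher among all 7251 genes, and 13 of 17 were above 0 with a median log2 change of 0.52.

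Other members had groups that did not overlap but did not pass the test. Myog, encoding myogenin, changed by 0.65 (adjusted p = 0.234) and Myod1 by 0.60 (0.32). The histone deacetylase gene Hdac4, a repressor that denervation is known to induce, changed by 0.98 (0.116, and 0.0117 with the EOM arrays alone). In that fit 5 of the 17 were called, the other addition being the adhesion gene Ncam1 (0.59, adjusted p = 0.0429). The remaining AChR subunits were close together, with 0.36 for Chrnb1, 0.31 for Chrnd and 0.53 for Chrne, the ε subunit of adult endplates (adjusted p = 0.577, 0.566 and 0.438). Chrng, the subunit of the fetal receptor that marks multiply innervated EOM fibres, and the agrin receptor kinase gene Musk stayed below 400 on every EOM array. Among genes of receptor clustering, Rapsn (-0.02), Lrp4 (0.05) and Agrn (-0.05) lay near 0, and the AChE anchor Colq was the lowest of the list (-0.45, adjusted p = 0.475).

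**Figure D2:**
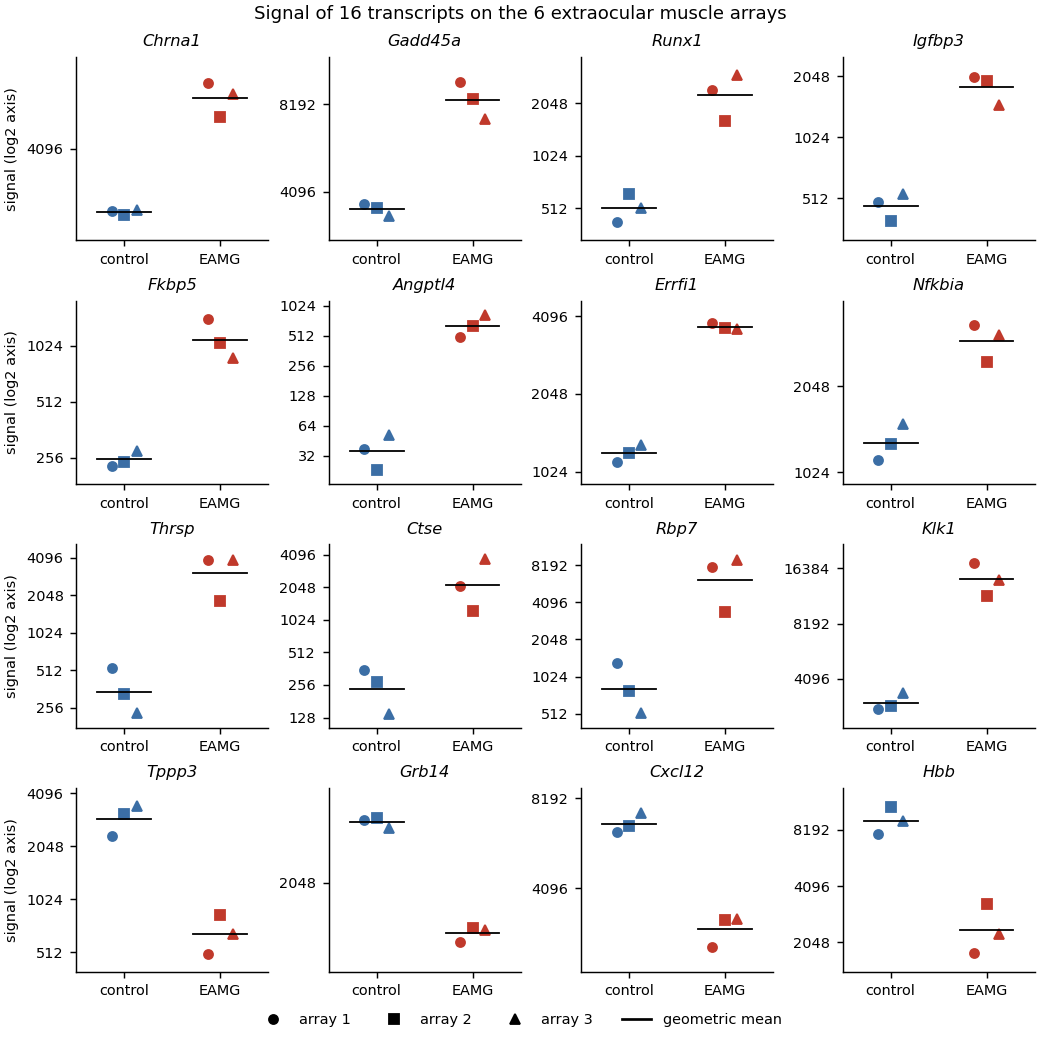
Signal (log axis) of key genes on each of the 3 control and 3 EAMG EOM arrays, 1 point per array, with a line at the geometric mean. Chrna1, Runx1, Fkbp5, Errfi1, Nfkbia and Igfbp3 lie higher on all EAMG arrays, and Tppp3, Cxcl12 and Grb14 lower.

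Genes that glucocorticoids are known to induce in muscle made up the list with the most calls, 11 higher and none lower of 25 tested, against 1.13% and 0.772% of all 7251 genes. Of these 25 genes, 23 were above 0, with a median of 0.77. Fkbp5, Angptl4 and Rasd1 were below 400 on all EOM control arrays and entered the test through EAMG arrays, so the minimum bears on their direction. The same list held 14 calls higher in the DIA and 19 in the EDL, with medians of 0.91 and 1.04. With the EOM arrays alone 14 members were called higher in EOM, the additions being Cebpd, Cdkn1a (adjusted p = 0.0253) and Gpx3 (0.0302). With no signal minimum only 3 members were called higher. The 11 calls in EOM came to 5 without EAMG 1, control 1 or control 2, 6 without control 3, 7 without EAMG 2, the array with the low spike-in signal, and 8 without EAMG 3.

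Fkbp5, a co-chaperone that damps its own receptor and is among the most sensitive reporters of glucocorticoids, read 232, 243 and 279 on the control arrays and 1423, 1063 and 886 on the EAMG arrays. All EAMG arrays were above all controls, EAMG 1 highest and EAMG 3 lowest, a log2 change of 2.14 ± 0.19 (SE, n = 3, adjusted p = 0.000123), next to 1.91 in the DIA and 2.16 in the EDL. The other probe set of Fkbp5 changed by 2.57, a call lost without EAMG 1, EAMG 2, control 1, control 2 or control 3 (up to 0.0629). Errfi1, a feedback inhibitor of the EGF receptor, read 1121, 1213 and 1296 on the control arrays and 3844, 3704 and 3639.6 on the EAMG arrays, with narrow groups far apart. It changed by 1.63 ± 0.21 (SE, n = 3, adjusted p = 0.000664), with 1.61 and 1.56 in DIA and EDL.

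Angptl4, a secreted inhibitor of lipoprotein lipase, gave the largest change of any named probe set. It read 37.8, 22.8 and 52.1 on the control arrays and 498, 647 and 833 on the EAMG arrays. Control signals this low are near the floor of the array, so the log2 change of 4.18 ± 0.52 (SE, n = 3, adjusted p = 0.000593) has a loosely known size, and with 100 added to every signal it was 2.45. The DIA and EDL changes were 2.69 and 2.77. Among the remaining called members, Txnip, an inhibitor of thioredoxin and of glucose uptake, changed by 0.77 (adjusted p = 0.00772). Cebpb, a transcription factor of the acute phase, changed by 1.36 and Sult1a1, a phenol sulfotransferase, by 0.97 (adjusted p = 0.0303 and 0.0274), the first lost without any 1 of the 6 arrays (up to 0.131) and the other without EAMG 1, EAMG 2, control 1, control 2 or control 3 (up to 0.124). Rasd1, a Ras-like protein named for its induction by dexamethasone, read 126, 214 and 207 on the control arrays and 1045, 650.4 and 849 on the EAMG arrays. It changed by 2.23 ± 0.44 (SE, n = 3, adjusted p = 0.0152), but by 0.57 and 0.12 in the DIA and EDL, and its call was lost without EAMG 1, EAMG 3, control 1, control 2 or control 3 (adjusted p up to 0.0848). Ddit4, an inhibitor of the growth kinase mTORC1, read 1102, 1431 and 1586 on the control arrays and 4319, 3194 and 4127 on the EAMG arrays, a change of 1.50 ± 0.29 (SE, n = 3, adjusted p = 0.0143) that was lost without EAMG 1, EAMG 3, control 1 or control 2 (up to 0.0787).

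Not every target moved. Tsc22d3, the leucine zipper that gives glucocorticoids part of their effect on inflammation, changed by 0.15, the kinase Sgk1 by -0.07, the phosphatase Dusp1 by -0.15 and Klf15 by 0.52, and none of them passed. Cebpd, whose groups did not overlap, missed the threshold (1.31, adjusted p = 0.058) but passed with the EOM arrays alone (0.0148) and with 100 added to each signal (0.0309). The palindromic site of the glucocorticoid receptor, searched as GNACA and TGTNC with any 3 bases between them, was found in the promoters of 0 of the 10 called members that had one and 1 of 13 members not called (Fam107a), and in 0.439% of all promoters, and these windows do not reach the distant enhancers through which the receptor often acts.

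Among genes of NF-κB signalling and cytokines, 4 passed. Nfkbia, which encodes the inhibitor IκBα that holds NF-κB in the cytoplasm and is itself a target of both NF-κB and the glucocorticoid receptor, read 1129, 1284 and 1512 on the control arrays and 3369, 2489 and 3097 on the EAMG arrays. All EAMG arrays were above all controls, a change of 1.19 ± 0.20 (SE, n = 3, adjusted p = 0.00576), with 1.29 in the DIA and 1.49 in the EDL. Its promoter (RefSeq, GRCr8, chr6:78597023-78597322, minus strand) is shown for its 1 match, in capitals, to the κB site, searched on both strands as GGG and TTTCC with any 2 bases between them, which occurs in 1.53% of all promoters.
Nfkbia: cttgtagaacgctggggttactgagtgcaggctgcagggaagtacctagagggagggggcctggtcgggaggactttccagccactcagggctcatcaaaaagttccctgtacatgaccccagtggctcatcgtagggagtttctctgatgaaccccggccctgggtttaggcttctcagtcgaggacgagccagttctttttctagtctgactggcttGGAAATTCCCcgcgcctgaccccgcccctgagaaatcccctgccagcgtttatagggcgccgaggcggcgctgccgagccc
Tnfrsf12a, the receptor Fn14 of the cytokine TWEAK, read 148, 233 and 262 on the control arrays and 517, 686 and 453 on the EAMG arrays. It changed by 1.38 ± 0.25 (SE, n = 3, adjusted p = 0.00954), a call lost without control 1 (adjusted p = 0.0546). Il15, a cytokine made by muscle, changed by 0.96 ± 0.20 (SE, n = 3, adjusted p = 0.0231), lost without EAMG 1, EAMG 2, control 1, control 2 or control 3 (up to 0.121).

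Cxcl12, the chemokine that recruits CXCR4-bearing stem and immune cells, fell. It read 6302, 6596 and 7323 on the control arrays and 2602, 3200.1 and 3230.4 on the EAMG arrays, the groups far apart, a change of -1.17 ± 0.16 (SE, n = 3, adjusted p = 0.0011). The DIA and EDL changes were -0.63 and -0.57 (adjusted p = 0.0441 and 0.0414). In all, 3 of the 12 NF-κB and cytokine genes tested were higher (1 without control 1, 2 without EAMG 1, EAMG 2, control 2 or control 3) and 1 was lower, against 1.13% and 0.772% of all 7251 genes. With no signal minimum 0 were called higher and 1 lower. The subunits Rela (0.01) and Nfkb1 (0.25) were near 0, and Il6, Tnf, Il1b and Ccl2 were below 400 on every EOM array.

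Some genes of lipid fuel rose, and 1 gene of glucose use did. Pnpla2, a triglyceride lipase of lipid droplets, read 2270.3, 2028 and 2278 on the control arrays and 4765, 5245 and 3844 on the EAMG arrays, a change of 1.07 ± 0.18 (SE, n = 3, adjusted p = 0.00692) beside 1.07 in the DIA and 1.34 in the EDL. Plin5, the lipid droplet coat of oxidative muscle, changed by 1.17 ± 0.23 (SE, n = 3, adjusted p = 0.016), lost without EAMG 2, control 1 or control 2 (up to 0.0906). Plin2, another droplet coat, was the other called member and is described with the gland genes, a list that also holds it. The carnitine transferase genes Cpt1a (0.91) and Cpt1b (0.48) and the β-oxidation genes Hadh (0.53) and Hadha (0.48) were above 0 and did not pass. Oxct1, needed to burn ketone bodies, was lower at -0.73 ± 0.16 (SE, n = 3, adjusted p = 0.0277), lost without EAMG 1, EAMG 3, control 1, control 2 or control 3 (up to 0.157). That made 3 higher and 1 lower of 29 tested, against 1.13% and 0.772% of all 7251 genes. The higher count depended on the settings, with 5 in the fit to the EOM arrays alone and with the replicate number as a block (the replicate block), 6 with 100 added to each signal and 7 with an intensity trend or after quantile normalization. Cpt1a was called in each of these 5 fits (adjusted p = 0.0236 to 0.0449). The higher count of the list fell to 1 with no signal minimum and to 2 without EAMG 2, control 1 or control 2.

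Pdk4, the kinase that shuts pyruvate out of the mitochondrion, read 5327, 4944 and 6417 on the control arrays and 13397, 14502 and 10658 on the EAMG arrays. Its change of 1.21 ± 0.25 (SE, n = 3, adjusted p = 0.0235) was the only call among 27 genes of glucose use and was lost without EAMG 1, EAMG 2, control 1, control 2 or control 3 (up to 0.119). The other glycolytic genes lay within a narrow band, 3 of 27 genes being above 0 with a median of -0.13. Within the insulin and IGF axis, Igfbp3, the main carrier of IGFs, read 488, 395 and 536 on the control arrays and 2039, 1950.2 and 1480.1 on the EAMG arrays, a change of 1.94 ± 0.27 (SE, n = 3, adjusted p = 0.00128), and its other probe set changed by 2.23. Grb14, an adapter that inhibits the insulin receptor, fell by 0.97 on the log2 scale, from 2985, 3036 and 2857 on the control arrays to 1429, 1557 and 1539 on the EAMG arrays (adjusted p = 0.0011). In the DIA and EDL Igfbp3 changed by 1.21 and 0.74 and Grb14 by -0.43 and -0.36. These 2 were the calls among 19 members, the remainder of which, Igf1 (0.20) and Insr (0.48) included, did not pass.

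No member of the fast or slow contractile lists was called over all 18 arrays. These lists do not hold every sarcomere gene. Some outside them were called higher, Myom2 (described below) among them, and others were called lower. With limma none of 23 fast and EOM-type sarcomere genes and none of 13 slow genes was called, with medians of -0.11 and -0.09. Myh13 read 27688, 24384 and 24618 on the control arrays and 27949.6, 21056 and 17345 on the EAMG arrays and changed by -0.23 ± 0.51 (SE, n = 3, adjusted p = 0.882). That SE comes from a single variance per probe set over all 18 arrays, and the DIA signal of Myh13 is near the array floor. The spread lay in single arrays, since EAMG 1 had the highest and EAMG 3 the lowest summed level of the fast list. The largest changes were in Mybph, a myosin-binding protein (0.71), and the calcium release channel Ryr1 (0.34) of the fast list, and in the tropomyosin Tpm3 (-1.10) and Myh6 (-0.86) of the slow list, with adjusted p = 0.135, 0.335, 0.448 and 0.14. With the EOM arrays alone Tpm3 and Myh6 were called lower (adjusted p = 0.00962 and 0.0387) and Sln, the calcium pump inhibitor sarcolipin, higher (0.78, adjusted p = 0.0219). Of the fast list, 1 gene was called after quantile normalization (Mybpc2) and 1 without EAMG 3 (Mybph).

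Several genes that are low in EOM and high in the other muscles rose. Smyd2, a lysine methyltransferase that protects the sarcomere protein titin, read 242, 284 and 185 on the control arrays and 575, 499.7 and 525 on the EAMG arrays, a change of 1.19 ± 0.13 (SE, n = 3, adjusted p = 0.000444), against control levels of 2981 in the DIA and 5376 in the EDL. Of the 119 higher probe sets, 3 had an EOM control level at least 4-fold below that of both other muscles (2.52%, against 0.109% of all tested). Smyd2 reached 400 on EAMG arrays only, as the minimum allows. Besides Smyd2 these were Myom2 and Slc38a4, chosen for naming after their values were seen. Myom2, the M-band protein of fast limb fibres, read 416, 418 and 317 on the control arrays and 1022, 1053 and 548 on the EAMG arrays, with EAMG 3 nearest the controls, and changed by 1.14 ± 0.20 (SE, n = 3, adjusted p = 0.00744). Its control level was 15054 in the DIA and 25373 in the EDL, where it changed by -0.01 and -0.13. Slc38a4, an amino acid transporter, changed by 1.06 ± 0.16 (SE, n = 3, adjusted p = 0.00327). Among the 71 lower probe sets 1 (1.41%), that of Ccdc181, also had an EOM control level at least 4-fold below both other muscles.

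Of 18 regeneration and muscle stress genes, Enc1, Smyd2 and Tnfrsf12a were called higher and none lower, against 1.13% and 0.772% of all 7251 genes. Enc1, an actin-associated protein, read 777, 947 and 966 on the control arrays and 1953, 1441 and 1699 on the EAMG arrays, a change of 0.92 ± 0.17 (SE, n = 3, adjusted p = 0.0127) that was lost without EAMG 1 or control 1 (up to 0.0728). Ankrd1, a stretch-induced titin-binding repressor, read 169, 293 and 299 on the control arrays and 932, 932 and 772 on the EAMG arrays, without overlap, a change of 1.83 ± 0.46 (SE, n = 3, adjusted p = 0.0576) that passed with the EOM arrays alone (0.0135). Csrp3, a Z-disc sensor of stretch, changed by 0.61 and Nfix, a factor of fetal to adult muscle, by -0.52 (adjusted p = 0.44 and 0.683). Of the 3 calls, only that of Smyd2 held without control 1. Of 20 atrophy and autophagy genes only Foxo3, the transcription factor that drives them, was called, at 0.85 ± 0.19 (SE, n = 3, adjusted p = 0.0379), and the call was lost on leaving out any 1 of the 6 arrays (up to 0.16). The ubiquitin ligases of wasting did not pass. Trim63 (MuRF1) read 1715, 2109.8 and 2272 on the control arrays and 4879.6, 2767 and 1797 on the EAMG arrays, where EAMG 1 stood above and EAMG 3 among the controls, and Fbxo32 (atrogin-1) changed by 0.13. In the DIA and EDL Trim63 changed by 1.39 and 1.31 (adjusted p = 0.0473 and 0.0394), and the lists of atrophy genes had 4 and 8 calls higher there. The difference between EOM and DIA or EDL did not pass its own test for Trim63 (adjusted p = 0.873 and 0.639). Ctsl, a lysosomal protease, changed by 0.38 in EOM, and Foxo1 by 0.02 (adjusted p = 0.425 and 0.99).

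A further group of large rises was in genes typical of glands and epithelium, several of which the DIA expressed too. The control level of Thrsp was 366 in EOM and 1588 in the DIA, that of Fabp5 847 and 949, that of Plin2 556 and 560.4 and that of Acsl5 505 and 575, so that none of these 4 was higher in control EOM than in control DIA. The DIA pools can be uneven, since another probe set of Thrsp had control means of 146 in EOM, 758 (SD 554) in the DIA and 101 in the EDL. Of the 21 lipid gland genes tested, a list of enzymes and carriers typical of meibomian and other lipid-secreting glands, 6 were higher and none lower, 20 were above 0 and the median was 0.95. Over all 7251 genes 1.13% were higher and 0.772% lower. A gene below 400 on all controls could enter the list only through an EAMG array, which favours values above 0. The DIA had no call in this list and the EDL 1 each way. Without 1 EOM array 3 (without control 3) to 5 (without EAMG 3) of the 6 were called. With the EOM arrays alone 8 were called, Plin2 being lost and Fasn, Acly and Mogat1 gained (adjusted p = 0.0219, 0.0358 and 0.0491). With no signal minimum 1 was called. Thrsp, a regulator of fatty acid synthesis, read 536, 328 and 234 on the control arrays and 3963, 1859 and 3931 on the EAMG arrays. Its change of 3.15 ± 0.56 (SE, n = 3, adjusted p = 0.00922) was lost without control 3 (adjusted p = 0.0524), and its change in the other muscles was 0.05 and 0.36. Plin2 read 641, 582 and 445 on the control arrays and 2115, 1043 and 2835 on the EAMG arrays, a change of 1.75 ± 0.27 (SE, n = 3, adjusted p = 0.00373), while its other tested probe set was not called. Fabp5, a fatty acid carrier of skin and glands, read 1097, 809 and 634 on the control arrays and 1996, 1901 and 3693 on the EAMG arrays, a change of 1.55 ± 0.28 (SE, n = 3, adjusted p = 0.00922) lost without control 3 (adjusted p = 0.0524). Acsl5, a fatty acyl-CoA synthetase, changed by 1.04 ± 0.18 (SE, n = 3, adjusted p = 0.00694), Elovl1, an elongase of very long chains, by 0.95 (adjusted p = 0.0494, lost without any 1 of the 6 arrays, up to 0.204) and Ces1d, a carboxylesterase, by 1.44 (0.0143, lost without EAMG 1, EAMG 2, control 1 or control 2, up to 0.0728). Aadac, Cldn10 and Mogat1 had changes of 4.0, 3.57 and 2.69 on groups that did not overlap, with adjusted p = 0.121, 0.14 and 0.128, and are not called. All of them passed with 100 added to each signal (0.000402, 0.023 and 0.00256), with smaller changes of 2.52, 1.35 and 1.86.

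Ctse and Rbp7 stood beside them. Ctse, encoding cathepsin E, an aspartic protease of epithelial and immune cells, read 351, 271 and 139.5 on the control arrays and 2089.9, 1232 and 3741 on the EAMG arrays, a change of 3.17 ± 0.37 (SE, n = 3, adjusted p = 0.000501). It was at 127 and 77.1 in control DIA and EDL and changed there by -0.10 and -0.40. Rbp7, a retinoid-binding protein of endothelium and fat, read 1319, 777 and 521 on the control arrays and 7876, 3413 and 9119 on the EAMG arrays, a change of 2.95 ± 0.36 (SE, n = 3, adjusted p = 0.000593) against 0.10 and -0.44 elsewhere. It was 1 of 2 called genes of the 21 endothelial genes tested, the other being Cxcl12, while Pecam1 (-0.09), Kdr (-0.35) and Tie1 (-0.22) lay near or below 0. LOC100360933, an uncharacterized locus, read 132, 85.5 and 46.0 on the control arrays and 933, 341 and 1460.0 on the EAMG arrays, a change of 3.27 ± 0.48 (SE, n = 3, adjusted p = 0.00245). Ctse and LOC100360933 were below 400 on all EOM control arrays and entered the test through EAMG arrays, so the minimum bears on their direction.

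Several of these genes shared an order of arrays. Control 1 was the highest and control 3 the lowest control, and EAMG 2 the lowest EAMG array. That order, noticed in these data and so not open to a test in them, was found in 15 of the 119 higher probe sets (12.6%) and in 624 of all 11017 (5.66%), and in 1 of the 71 lower (1.41%). The 12 named genes that showed it were Acsl5, Aldh3a2, Amacr, Ctse, Dct, Fabp5, Gstt3, Hacd2, LOC100360933, Plin2, Rbp7 and Thrsp. Of the 93 higher probe sets that reached 400 on a DIA or EDL control array, 11 (11.8%) had this order. Of the 26 that did not, 4 (15.4%) had it. The calls of Aldh3a2 and Amacr were lost without EAMG 1, EAMG 3, control 2 or control 3 (adjusted p up to 0.0697 and 0.109). Those of Gstt3 and Hacd2 were lost without any of these or control 1 (up to 0.178 and 0.154). How much gland or epithelium each pool of muscle held was not measured, and its part in these rises was not tested.

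Markers of the other tissues of the orbit were uneven. Of 13 surface epithelium genes tested, 11 were above 0 (median 0.61), yet only Ctse was called higher and Lamb3 was called lower. The simple-epithelial keratin genes Krt18 and Krt8 and the adhesion gene Epcam changed by 2.27, 1.98 and 2.24 without passing (adjusted p = 0.0999, 0.121 and 0.256). Pax6, a regulator of eye epithelia, read 71.1, 31.1 and 45.7 on the control arrays and 114, 104 and 495 on the EAMG arrays, a change of 1.95 ± 0.91 (SE, n = 3, adjusted p = 0.359) that EAMG 3 led. Krt14, Krt12, Krt13, Krt4 and 20 other markers of the list were below 400 on every EOM array. The summed signal of the list was 3845 to 4842 on the control arrays, 6129 and 4713 on EAMG 1 and 2 and 11617 on EAMG 3. None of the 7 serous lacrimal genes was called, and Pigr, the antibody transporter of secretory epithelium, was high on 1 array only, at 101, 108 and 106 on the control arrays and 185, 83.7 and 2729 on the EAMG arrays. All 4 nasal and olfactory genes tested, Cyp2g1, Scgb1c1, Bpifa1 and Obp1f, were above 0 with a median of 1.70 and none was called by limma, though 3 were with 100 added to each signal, 2 with the replicate block and 1 with the EOM arrays alone, and 18 others of that list were below 400. The 4 genes summed to only 649 to 992 on the control arrays. A gene of these lists below 400 on all controls could enter only through an EAMG array, which favours values above 0. Of the melanocyte genes Dct, an enzyme of pigment synthesis, was higher at 2.67 ± 0.61 (SE, n = 3, adjusted p = 0.0366), lost without EAMG 1, EAMG 3, control 1, control 2 or control 3 (up to 0.164), while Tyr, Tyrp1, Mlana and Pmel were below 400.

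**Figure D3:**
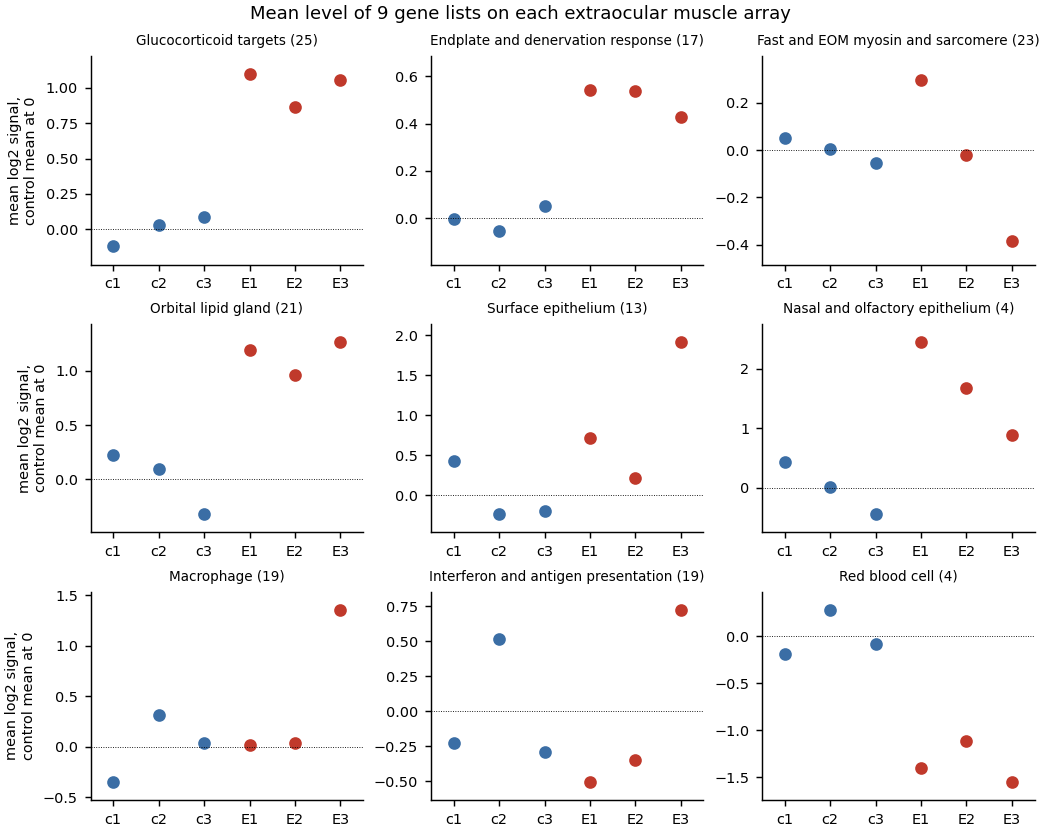
Mean log2 signal on the 6 EOM arrays relative to the mean of the 3 control arrays, for 9 gene lists, 1 point per array (c1 to c3 control, E1 to E3 EAMG). EAMG 3 stands above the other 5 arrays for macrophage and surface epithelium genes, whereas all 3 EAMG arrays lie above the controls for the orbital lipid gland list and below them for red blood cell genes.

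Called probe sets were also described by their level in the control arrays of the other muscles. Of all tested probe sets 89.9% reached 400 on a DIA or EDL control array, against 93 of the 119 higher (78.2%) and 66 of the 71 lower (93.0%). The higher probe sets that did not reach it numbered 26 (21.8%), and include the glucocorticoid target Angptl4 as well as Ctse, Dct and Klk1. In 22 of the 119 (18.5%), and in 4.18% of all tested, every one of the 9 control arrays of the 3 muscles was below 400. These shares are partly set by the signal minimum, since a probe set below 400 on all EOM controls could enter only through an EAMG array, as 31 of the higher and 0 of the lower did.

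**Figure D4:**
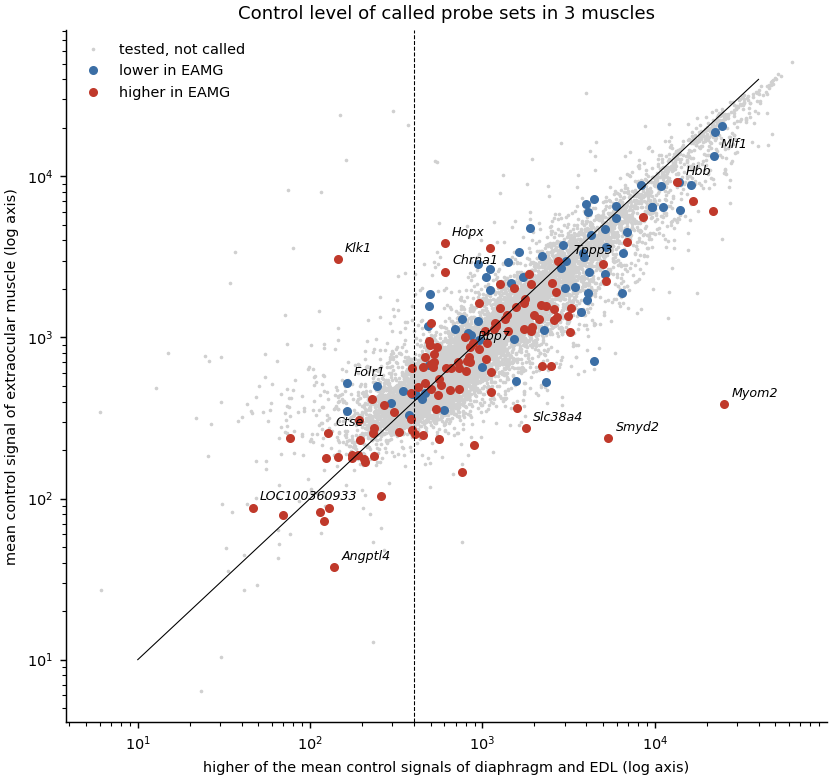
Mean EOM control signal against the higher of the mean DIA and EDL control signals (log axes, diagonal at equal signal, dashed line at 400) for all tested probe sets, with those called higher and lower in EAMG marked. Klk1 and Chrna1 lie on the EOM side of the diagonal and Myom2 and Smyd2 on the other.

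Klk1 rose from a high control level. It encodes tissue kallikrein, the protease that frees kinins in glands, kidney and vessels, and it read 2789, 2920.4 and 3448 on the control arrays and 17564, 11641 and 14238 on the EAMG arrays, a change of 2.23 ± 0.27 (SE, n = 3, adjusted p = 0.000593). Its control level was 68.0 in the DIA and 144 in the EDL, where it changed by 1.21 and 0.21 (adjusted p = 0.0257 and 0.691). An EOM control level at least 4-fold above both other muscles was seen in 3 of the 119 higher probe sets (2.52%) and in 0.998% of all tested. The 3 were Klk1, Chrna1 and Hopx, a homeodomain-like cofactor named here for that level, which changed by 0.58 ± 0.13 (SE, n = 3, adjusted p = 0.0371) and lost its call without any 1 of the 6 arrays (up to 0.164). Kallikreins are a family of close copies in the rat, and the probes may read more than 1 of them. The signal of Klk1 was highest on control 3 among the controls and lowest on EAMG 2 among the EAMG arrays.

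The remaining large rises were of mixed function. Fmo2, a flavin monooxygenase, read 404, 323 and 205 on the control arrays and 1581, 1129.9 and 1116 on the EAMG arrays, a change of 2.07 ± 0.26 (SE, n = 3, adjusted p = 0.000664) with 1.84 and 1.40 in the DIA and EDL. Mfsd4a, a transporter-like membrane protein, changed by 2.28 ± 0.42 (SE, n = 3, adjusted p = 0.0118) on uneven EAMG arrays (800.3, 177 and 310.2) and was lost without control 2 or control 3 (up to 0.0607). Pex11a, a gene of peroxisome division, changed by 1.83 and Tmem37, a channel-related protein, by 1.82 (adjusted p = 0.0094 and 0.0146), the first lost without control 3 (adjusted p = 0.0508) and the other without EAMG 2, EAMG 3, control 1 or control 2 (up to 0.0801). Akip1, which binds protein kinase A and p65, read 677, 597 and 674 on the control arrays and 1757, 1311 and 1556 on the EAMG arrays, a change of 1.24 ± 0.16 (SE, n = 3, adjusted p = 0.000677).

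The largest fall of a named probe set was in Tppp3, a tubulin-binding protein of motile cilia that tendon sheath cells also express. It read 2361, 3109.9 and 3466 on the control arrays and 503, 833 and 648 on the EAMG arrays, with no overlap, a change of -2.18 ± 0.29 (SE, n = 3, adjusted p = 0.000777), with -0.86 and -0.11 in the DIA and EDL. It belongs to a list of ciliated epithelium genes whose 3 tested members, Tppp3, Ccdc181 and Mlf1, were all lower, against 0.772% of all 7251 genes, though Ccdc181 was not called with the EOM arrays alone or with the replicate block (adjusted p = 0.0999 and 0.0645). Mlf1 fell in all 3 muscles (-0.67, -0.82 and -0.58 in EOM, DIA and EDL) from control levels of 13471, 20597 and 21944, and Ccdc181 had control levels of 714, 4429 and 3671, and its call was lost without EAMG 1, EAMG 2, control 1, control 2 or control 3 (up to 0.179). Foxj1, the master regulator of motile cilia, and 9 other members were below 400 on every EOM array.

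Genes of red blood cells fell in EOM as in the DIA. Hbb, β-globin, read 7759.5, 10850.3 and 9142 on the control arrays and 1801, 3278 and 2276 on the EAMG arrays, a change of -1.95 ± 0.36 (SE, n = 3, adjusted p = 0.012) with -2.10 in the DIA and -1.22 in the EDL. Its call was lost without EAMG 1, control 2 or control 3 (up to 0.0653), and its probe set is of a type that can read closely related genes. Hba-a3 of the α-globin cluster changed by -1.81 ± 0.27 (SE, n = 3, adjusted p = 0.00271) and Alas2, the first enzyme of haem synthesis in red cell precursors, by -1.81 ± 0.30 (SE, n = 3, adjusted p = 0.00692). Of 4 red cell genes tested 3 were lower, against 0.772% of all 7251 genes, with a list median of -1.81. The summed signal was 10728 to 14456 on the control and 4200.2 to 6128 on the EAMG arrays, which did not overlap. Slc4a1 and 4 other members were below 400. The share of blood in the tissue was not measured.

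Further falls were in secreted and membrane proteins. St3gal6, a sialyltransferase, read 2543, 2869.8 and 2736 on the control arrays and 1210.4, 1296 and 1163 on the EAMG arrays, a change of -1.15 ± 0.17 (SE, n = 3, adjusted p = 0.00265). Smtnl1, a muscle protein regulated by protein kinases A and G during exercise, read 7937, 8915 and 9786 on the control arrays and 4881, 4931 and 4429 on the EAMG arrays, a change of -0.90 ± 0.14 (SE, n = 3, adjusted p = 0.00395), while it changed by -0.03 in the DIA and 0.49 in the EDL. Rgs2, an inhibitor of G protein signalling, changed by -0.90 ± 0.15 (SE, n = 3, adjusted p = 0.00692), and by 0.38 and -0.67 in DIA and EDL. Dyrk2, a protein kinase, missed the threshold (-0.82, adjusted p = 0.0538), and Pde4b, a phosphodiesterase of cAMP, changed by 0.23 (adjusted p = 0.764). Spmip6, named for a protein of sperm microtubules, changed by -1.94 (adjusted p = 0.00748) and the open reading frame C5h1orf127 by -1.19 (0.00327). Folr1, a folate receptor of epithelia, changed by -1.23 ± 0.23 (SE, n = 3, adjusted p = 0.012), lost without control 1 or control 2 (up to 0.0574). The other falls among the 15 largest did not keep their call without several of the arrays. These were Neu2, a cytosolic sialidase (-1.22), the carboxypeptidase Cpa1 (-1.19), the epithelial laminin chain Lamb3 (-1.15), Wnt16 (-1.12), Tmem196 (-1.25) and LOC102553868 (-1.57), whose adjusted p values were 0.042, 0.0458, 0.0187, 0.033, 0.0441 and 0.0494 with all arrays and reached 0.167, 0.204, 0.09, 0.17, 0.167 and 0.203 without 1 of them.

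Calls among markers of immune cells depended on the fit. With limma over 18 arrays no macrophage gene of 19, no B cell gene of 3 and no neutrophil gene of 2 was called. With the EOM arrays alone the macrophage genes Spp1 and Cd163 (0.67, adjusted p = 0.0387) and the neutrophil gene S100a9 (adjusted p = 0.0253) were higher. Several members were high on EAMG 3 alone. Gpnmb, a glycoprotein of phagocytes in damaged tissue, read 445, 444 and 407 on the control arrays and 1128, 879 and 12524 on the EAMG arrays, all above the controls but with EAMG 3 far above the other EAMG arrays, a change of 2.42 ± 0.73 (SE, n = 3, adjusted p = 0.116). Lcn2, a neutrophil and epithelial siderophore binder, read 153, 401 and 205 on the control arrays and 161, 162 and 3201 on the EAMG arrays, so that EAMG 1 and 2 lay among the controls. S100a9, a neutrophil calcium-binding protein, changed by 1.18, the B cell gene Jchain by 0.84 and Xbp1, a factor of secretory cells, by 0.31 (adjusted p = 0.312, 0.757 and 0.28). Spp1, encoding osteopontin, was even across EAMG arrays, at 234, 183 and 152 on the control arrays and 553, 514 and 674 on the EAMG arrays, with no overlap. Its change of 1.63 ± 0.62 (SE, n = 3, adjusted p = 0.24) did not pass over 18 arrays, but did with the EOM arrays alone (adjusted p = 0.0102) and with 100 added to each signal (0.00403), and its control levels in the DIA and EDL, 67.8 and 46.8, are near the array floor. Among 19 interferon and antigen presentation genes Cd1d1 alone was called, and it fell by 0.84 on the log2 scale (adjusted p = 0.012, lost without EAMG 1, control 1 or control 2, up to 0.0694). The summed signal of that list was high on 1 array of each group, 55725 on control 2 and 62492 on EAMG 3, against 32001 to 36025 on the other 4. No complement gene of 11 was called, C3 reading 92.6, 363 and 104 on the control arrays and 352, 255 and 1349.9 on the EAMG arrays, Cd55, a brake on complement, changing by -0.45 (adjusted p = 0.121), and C9, the pore-forming component, was below 400.

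EOM had fewer calls than the other muscles. Over the same 11017 probe sets the DIA had 194 higher (1.76%) and 140 lower (1.27%) and the EDL 388 higher (3.52%) and 378 lower (3.43%). Of the 119 higher in EOM, 35 were also higher in the DIA, 42 in the EDL and 22 in both, and 64 were called higher in neither. Of the 71 lower, 29 were lower in the DIA, 24 in the EDL and 16 in both, and 34 in neither. The sign of the change was shared more widely, by 105 of the 119 in the DIA and 95 in the EDL, and by 64 and 62 of the 71. A call in 1 muscle and not in another is no test of a difference, and the tests of the difference itself passed for few probe sets, 3 (0.0272%) between EOM and DIA and 15 (0.136%) between EOM and EDL, while 703 and 1131 had an unadjusted p under 0.05. Both tests use the same 6 EOM arrays, so they are not independent.

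**Figure D5:**
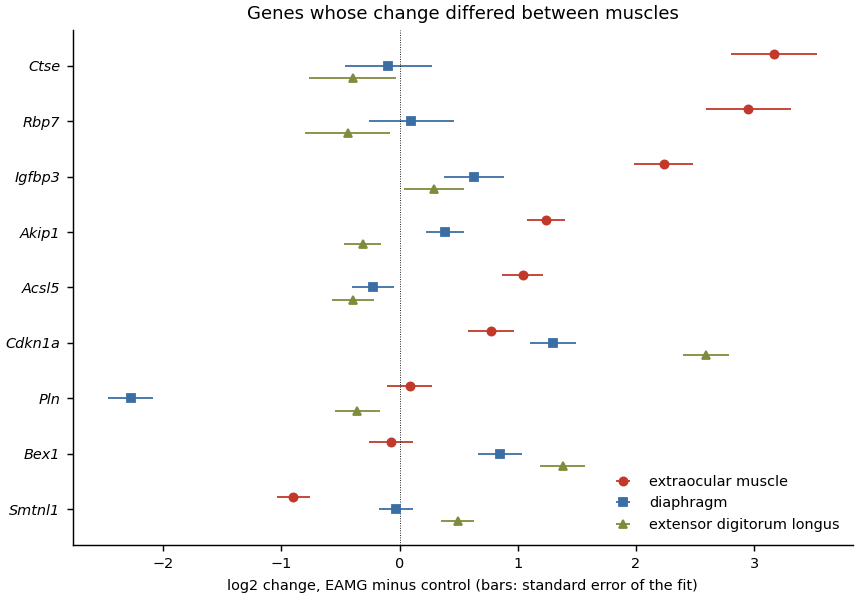
Log2 change (EAMG minus control, with bars for the SE of limma) in EOM, DIA and EDL for the named genes whose change differed between muscles, n = 3 arrays per group. Ctse and Rbp7 lie at 3.17 and 2.95 in EOM and between -0.44 and 0.10 in the DIA and EDL, Pln is low in the DIA alone, and Smtnl1 is low in EOM.

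Ctse passed both tests, at 3.26 above the DIA (adjusted p = 0.0465) and 3.56 above the EDL (adjusted p = 0.00716). The first did not hold without EAMG 1 (adjusted p = 0.128), EAMG 3 (0.0594), control 2 (0.113) or control 3 (0.107), nor with the EAMG 2 and 3 arrays of the DIA left out (0.218). It also failed with the signal minimum on 1 of 18 arrays (0.0589) and with no minimum (0.196). Ctse was below 400 on all EOM control arrays and entered the test through EAMG arrays. Rbp7 differed from the EDL by 3.39, Akip1 by 1.55, Acsl5 by 1.44 and the other Igfbp3 probe set by 1.94, all higher in EOM (adjusted p = 0.00848, 0.00716, 0.0328 and 0.0448). That of Acsl5 did not hold without EAMG 1 or 3 or any 1 control array (adjusted p up to 0.11), nor without those DIA arrays (0.0532), and that of Igfbp3 without EAMG 1 or 2 or any 1 control array (up to 0.129). Below 0 were Cdkn1a at -1.82, Smtnl1 at -1.39 and Bex1 at -1.45 (adjusted p = 0.00848, 0.00716 and 0.0448, the last not held without any 1 of the 6 EOM arrays, up to 0.12). Cdkn1a, the cell cycle inhibitor p21, changed by 0.77 in EOM, 1.30 in the DIA and 2.59 in the EDL, from control levels of 3987, 2139 and 355. With the replicate block Ctse passed neither test (adjusted p = 0.166 and 0.0655), and Bex1 did not pass (0.0749). With no signal minimum none of the differences from the EDL given here passed (adjusted p = 0.0753 to 0.26). Bex1, a small protein of regenerating muscle and nerve, changed by -0.07, 0.85 and 1.38.

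Pln, phospholamban, the brake on the calcium pump of slow fibres, differed between EOM and DIA through the DIA. In EOM it read 5427, 5499 and 5577 on the control arrays and 5624, 5871 and 6004 on the EAMG arrays, a change of 0.08 ± 0.19 (SE, n = 3, adjusted p = 0.886). In the DIA it fell by 2.27 on the log2 scale, which left a difference of 2.36 (adjusted p = 0.00254). It did not hold without the DIA EAMG 2 and 3 arrays (adjusted p = 0.0915) or with the replicate block (0.106).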

How the data were processed

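The authors summarized each rat array in GCOS and deposited 1 signal intensity per probe set and array, on a linear scale with every array scaled to one target. Their change calls between arrays are not in the values and were not used. Symbols came from the platform annotation, in which 20826 probe sets carried 1 symbol, 436 several and 9780 none. Array controls were left out, signals were taken to log2, and limma 3.58.1 in R 4.3.3 was fitted (lmFit, eBayes) to all 18 arrays with 1 mean per group. The contrasts compared EAMG with control in each muscle, and these changes between EOM and DIA and between EOM and EDL. P-values were adjusted by Benjamini-Hochberg over the 11017 probe sets tested, with a threshold of 0.05. SEs are those of limma, and the number of arrays limits the precision. The labels do not tie pools to animals, so p-values measure the spread between these pools. The fit was tested on simulated data first.

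The text names the 15 largest rises and falls, up to 4 called members of each of 35 gene lists (472 entries tested) or the 2 largest where none was called, up to 8 genes of each between-muscle test, and genes the study discusses, and some further list members were added after their values were seen. Members and lists were chosen with earlier results of these data known. Alternatives were 100 added to signals, an intensity trend, EOM arrays alone, other signal minimums or none, quantile normalization, a replicate block and leaving out arrays. Promoters were the RefSeq GRCr8 sequences.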

Additional observations from a re-analysis of the deposited data

Results flagged for a closer look

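Changes in EOM differed from those of another muscle by limma's test of the difference for 9 named genes, of which Ctse differed from both. In EOM minus DIA the log2 difference was 3.26 for Ctse and 2.36 for Pln. In EOM minus EDL it was 3.56 for Ctse, 3.39 for Rbp7, 1.94 for Igfbp3, 1.55 for Akip1, 1.44 for Acsl5, -1.39 for Smtnl1, -1.45 for Bex1 and -1.82 for Cdkn1a. With the EAMG 2 and 3 arrays of the DIA left out, 1 probe set was called in the test of EOM minus DIA. Groups of 3 arrays were too small to look for single outlying arrays by a formal rule.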

How the results depend on the processing

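The 119 higher and 71 lower calls became 179 and 109 with 100 added to each signal, and 30 and 9 with no signal minimum. With no minimum, 41 of the 63 called probe sets selected for naming no longer passed. The lower count was 111 with the EOM arrays alone and 116 after quantile normalization. Leaving out 1 EOM array gave 44 to 85 higher and 19 to 42 lower. The calls of at least 2-fold, 61 and 24, became 28 and 7 with no minimum, and 37 to 56 and 10 to 20 without 1 array. The ratio counts of 70 and 25 became 316 and 374 with no minimum and 34 and 14 when all 9 ratios were required, the lower one 15 with 100 added, and they were 57 to 75 and 24 to 35 without 1 array. Between muscles, the 3 probe sets of EOM minus DIA became 13 with 100 added, 5 with an intensity trend, 1 with no minimum, 6 after quantile normalization, 1 without DIA EAMG 2 and 3 and 2 to 8 without 1 EOM array. The 15 of EOM minus EDL became 47, 35 and 4 under the first 3 of these settings, 37 with the minimum on 3 of 6 EOM arrays and 9 to 17 without 1 EOM array. The cause was not tested, except that no minimum adds dim probe sets to the adjustment.

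The methods describe the replicates as repeats of the experiment, but nothing says that a number marks the same repeat in each group. Same-numbered EAMG and control EOM arrays had deviations correlated at r = 0.21, 0.19 and -0.03. Over all 6 groups, 21 of 45 same-numbered pairs were over 0.1 (median 0.09, from -0.22 to 0.45), EOM EAMG with DIA EAMG at 0.11, 0.45 and 0.24, so pairing is not settled. With the replicate block 114 were higher and 62 lower, 134 of 190 probe sets were called in both fits, and limma called 0 probe sets of EOM minus DIA (807 at an unadjusted p under 0.05).

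Leaving out 1 array cannot turn the sign where groups do not overlap, as in all 190 called probe sets. Of named genes with overlap, without 1 array at a time Fbxo32 ranged from -0.21 (without EAMG 1; -0.09 without control 1) to 0.44, Foxo1 from -0.14 (without EAMG 1; -0.12 without control 1, -0.09 without control 3) to 0.26, and, each lowest without EAMG 3, Jchain from -0.34 to 1.71, Lcn2 from -0.53 to 1.63 and Sox10 from -0.10 to 0.41. Signals near the array floor limit the size of rises from controls below 100.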

Other observations

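The detoxifying enzymes were the largest group not yet described. Of 28 antioxidant and detoxification genes tested, 3 were higher and none lower (median 0.08), against 1.13% and 0.772% of all 7251 genes. The 3 were Fmo2 and the glutathione transferases Mgst1 and Gsta1. Mgst1 read 1201, 1002 and 1058 on the control arrays and 3306, 2776 and 5339 on the EAMG arrays, a change of 1.76 ± 0.41 (SE, n = 3, adjusted p = 0.0406), and Gsta1 changed by 0.88 ± 0.20 (SE, n = 3, adjusted p = 0.0371), both lost on leaving out any 1 of the 6 arrays (up to 0.153 and 0.164), and the probes of Gsta1 may read related family members. The alcohol dehydrogenase Adh1c (2.54) and the aldehyde oxidase Aox1 (1.22) had groups that did not overlap and did not pass (adjusted p = 0.0461 and 0.0241 with the EOM arrays alone), whereas the superoxide dismutases Sod1 (-0.01) and Sod2 (-0.14), catalase (Cat, -0.02) and Nqo1 (-0.05) were near 0. Of 18 chaperone genes Hsph1 was called lower, at -0.58 ± 0.12 (SE, n = 3, adjusted p = 0.02) (lost without EAMG 1, EAMG 2, control 1 or control 3, up to 0.121), 3 were above 0 and the median was -0.16, with Hspa1a at -0.99 and Hspe1 at -0.39. With the EOM arrays alone Hspa1a was called lower (adjusted p = 0.0117).

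No clock gene of 18 and no immediate early gene of 13 was called. Per1, which glucocorticoids also induce, changed by 0.58 and the clock repressor Nfil3 by 0.85 (adjusted p = 0.102 and 0.314), and the early growth response gene Egr1 by -0.66. Among supporting cells, none of 26 fibroblast matrix genes, 12 smooth muscle, 9 Schwann cell, 4 tendon and 3 oligodendrocyte genes was called. Kcnj8, a potassium channel of pericytes, changed by -0.68 and the smooth muscle actin Actg2 by 0.65 (adjusted p = 0.0677 and 0.452). Tnmd and Scx of tendon changed by -0.86 and 0.26, Drp2 and Sox10 of Schwann cells by 0.42 and 0.20, and the water channel Aqp4 and the myelin claudin Cldn11 by -0.31 and 0.29, none with an adjusted p under 0.05. The matrix list had 7 genes above 0 and a median of -0.18, from Mfap4 at -1.07 to periostin (Postn), a matrix protein of repair, at 0.82, neither of which passed. Of 8 adipocyte genes Plin4, a droplet coat that muscle also expresses, was higher at 0.74 ± 0.16 (SE, n = 3, adjusted p = 0.0264) (lost without EAMG 1, EAMG 2, control 1, control 2 or control 3, up to 0.131), while adiponectin (Adipoq, 0.60) and Fabp4 (-0.11) were not called and Plin1, Lep and Cidec were below 400 on every EOM array.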
